A study of Mus musculus with 20 samples.

Results

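The 9 mature microRNAs (miRNAs) described here are known from blood cells and endothelium: mmu-miR-142-5p, mmu-miR-142-3p, mmu-miR-150-5p, mmu-miR-126-3p, mmu-miR-126-5p, mmu-miR-146a-5p, mmu-miR-146b-5p, mmu-miR-155-5p and mmu-miR-223-3p. They were taken by name, with earlier results of these data known, from 1063 miRNAs counted in both lines. All 9 passed the filter on low counts, miR-223-3p only through the male libraries of experiment 2 at days 4 and 10. Small RNA libraries were sequenced from a female (PGK) and a male (E14) mouse embryonic stem cell line on the way to epiblast stem cells, the primed state that resembles the epiblast after implantation. Day 0 cells grew in 2i medium, which keeps cells naive by blocking Mek and Gsk3. They were then plated on fibronectin in N2B27, with Fgf2 and Activin A added, and sampled after 4 days, after 10 days, once between days 19 and 23 and once between days 27 and 30 (the late stage). All 10 groups held 2 libraries, 1 from each of 2 differentiation experiments that the labels number 2 and 3. The design has 1 line per sex, and an effect of sex cannot be told apart from one of the line. Every stage of a line was compared with the same 2 day 0 libraries, and p-values measure the spread between these experiments.

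A miRNA gene is transcribed as a hairpin whose stem yields a 5p and a 3p arm, and an arm loaded into Argonaute represses mRNAs that match its seed, bases 2 to 8. miR-142 is made throughout the blood lineages and has also been described in cultured mouse embryonic stem cells, miR-150 marks mature lymphocytes and restrains Myb, and miR-223 belongs to granulocytes and their precursors. miR-146a and miR-146b are induced by NF-kB signalling and act on Traf6 and Irak1, miR-155 rises in activated lymphocytes and macrophages, and miR-126, carried by the gene Egfl7, is the best known endothelial miRNA.

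Of the 9 names, 7 had a mature sequence in the RefSeq table (GRCm38.p6). They are shown with the seed in capitals, 5′ to 3′, because the seeds separate these miRNAs by target and the levels of the pair with a common seed are compared.
mmu-miR-142-5p: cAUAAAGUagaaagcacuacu
mmu-miR-142-3p: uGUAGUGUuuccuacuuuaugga
mmu-miR-126-3p: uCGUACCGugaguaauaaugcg
mmu-miR-146a-5p: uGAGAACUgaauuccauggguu
mmu-miR-146b-5p: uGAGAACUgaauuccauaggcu
mmu-miR-155-5p: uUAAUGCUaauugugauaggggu
mmu-miR-223-3p: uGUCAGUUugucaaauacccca
Only miR-146a-5p and miR-146b-5p shared a seed (GAGAACU). Both are 22 bases long, and counted from the 5′ end they differed at 2 positions, G18A and U21C, from miR-146a-5p to miR-146b-5p. Both differences lie outside the seed and near the 3′ end, so a read that ends early cannot tell them apart, and how such reads were counted is not given in the sources used here. miR-142-5p and miR-142-3p come from 1 hairpin of 64 bases at chr11:87756864-87756927 (GRCm38, plus strand), printed with both arms in capitals because both are measured here.
Mir142: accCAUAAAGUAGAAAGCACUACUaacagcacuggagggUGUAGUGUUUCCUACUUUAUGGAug

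The 9 arms came from 7 hairpins on 6 chromosomes of GRCm38. Mir142 lay in an intron of the non-coding gene Mir142hg, and miR-126 (chr2:26591357-26591429, plus strand) overlapped an exon of at least 1 transcript of Egfl7 and an intron of Gm20532. miR-155 (chr16:84714140-84714204, plus) lay in an exon of Mir155hg, miR-223 (chrX:96242817-96242926, plus) in an exon of F630028O10Rik and miR-146b (chr19:46342762-46342870, plus) in an intron of Mfsd13a. miR-150 (chr7:45121757-45121821, plus) and miR-146a (chr11:43374397-43374461, minus) overlapped no annotated gene.

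Library totals ran from 7112398 to 18031067 counts, so that 3 counts, the limit that a count of 0 allows, corresponded to 0.166 to 0.422 CPM (counts-per-million) of the plain total. Elsewhere CPM are scaled by TMM factors, a correction for library composition. The day 0 library of experiment 3 carried in both lines a cell type label of differentiating cells, while its title and day gave day 0. Its miR-302a-3p, an arm of the cluster that marks primed cells, stood at 40.8 (female) and 114 (male) CPM. In experiment 2 this arm was at 42.8 and 69.2 CPM, and in every later library at 2644 CPM or more. The 7 arms of the miR-302 and miR-367 list summed to 190 (female) and 574 (male) CPM in it, against 164 and 269 CPM in experiment 2. Later libraries summed to at least 9068 CPM. The library was grouped by its day. All 7 tested arms of the miR-302 and miR-367 list rose at every stage in both lines, where 33.7% to 43.5% of all tested miRNAs were called. Without that library, 13 of the 14 member calls against day 0 in the female line and 9 of the 13 in the male line passed the test, as given with each member.

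Of the 9 members, miR-142-5p, miR-142-3p and miR-150-5p had their highest means in naive cells and were far lower by day 10 in both lines. miR-126-3p and miR-126-5p lay above day 0 in every later library of the female line, miR-146b-5p had its highest mean at day 0 with a wide spread, and miR-155-5p had its lowest mean there. miR-146a-5p had its highest mean at day 10, and miR-223-3p was at the limit of detection in 18 of 20 libraries. Day 0 thus held the highest mean of 4 of the 9 members in both lines, and the other 5 had theirs at a later stage. Within a single experiment a later stage exceeded day 0 for miR-142-3p (male, experiment 3), miR-150-5p (female, experiment 2) and miR-146b-5p (male, experiment 3). In the edgeR quasi-likelihood test with Benjamini-Hochberg adjustment over 813 miRNAs at 0.05, 4 of the 9 members were called in the female line at day 4, 2 lower and 2 higher, where 39.1% of all tested miRNAs were called. At day 10 the female line had 3 lower and 1 higher (40.1% of all), and 3 lower at days 19 to 23 (40.5%) and late (43.5%). In the male line 1 was lower and 1 higher at day 4 (43.4% of all), 3 lower and 2 higher at day 10 (33.7%), and 3 lower at days 19 to 23 (34.3%) and late (40.7%). The higher one at male day 4, and 1 of the 2 at male day 10, was miR-223-3p. The members' calls lay on both sides of the share of all miRNAs, below it at male day 4 and above it at male day 10. With 9 members a difference from that share was not tested, and the miR-223-3p calls are no support for a change. The members' median late change was a log2 change of -0.61 (female) and -0.70 (male), against 0.01 and 0.05 over all tested miRNAs. These medians are the values of miR-146a-5p (female, adjusted p = 0.55) and miR-126-5p (male, 0.15), neither of which passed. The members were chosen with earlier results of these data known, so the medians are a description and no evidence of a fall of the group.

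**Figure D1:**
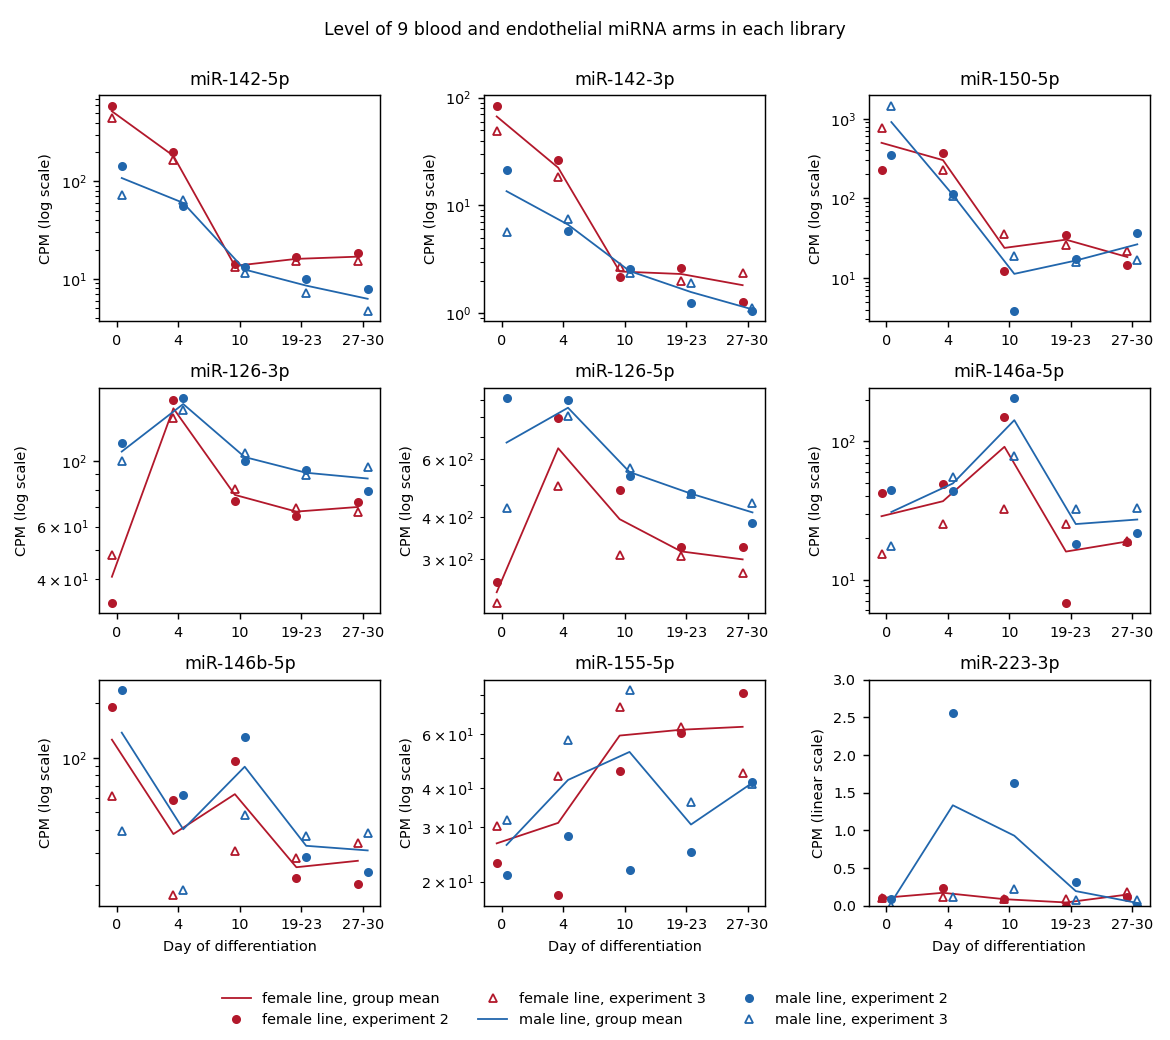
Level of each of the 9 arms in every library (CPM scaled by TMM factors, on a log axis except for miR-223-3p) against the day of differentiation, with lines through the means of the 2 libraries of a group. The 3 arms of the top row fall from day 0 to day 10 in both lines, while miR-126-3p and miR-126-5p start lower in the female than in the male line.

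miR-142-5p was the most abundant miR-142 arm and fell steeply in both lines. In the female line it was at 596 and 447 CPM at day 0 (experiments 2 and 3 in turn), 198 and 167 at day 4, 14.1 and 13.1 at day 10, 16.7 and 15.3 at days 19 to 23, then 18.4 and 15.4 late. In the male line it was at 143 and 72.9 CPM at day 0, 56.0 and 64.2 at day 4, 13.4 and 11.6 at day 10, 9.92 and 7.16 at days 19 to 23, then 7.81 and 4.70 late. Day 0 lay above every later library in both lines, and the 6 female libraries from day 10 on all lay between 13.1 and 18.4 CPM. Among the 1063 miRNAs its rank by mean level went from 145 to 418 in the female line and from 247 to 520 in the male line between day 0 and the late stage. The female log2 change was -1.51 ± 0.39 (SE; 2 libraries per group throughout) at day 4 (adjusted p = 0.0065), -5.26 ± 0.45 at day 10 (7.1e-07) and -4.95 ± 0.45 late (1.7e-06). The male change was -0.85 ± 0.38 at day 4 and did not pass (0.085), then -3.11 ± 0.41 at day 10 (5.2e-05) and -4.11 ± 0.43 late (8.2e-06). The day 4 values were sensitive to the libraries and scaling used. The female call was lost without the day 4 library of experiment 3 (adjusted p = 0.060), while the male change passed with RLE scaling (-1.06, adjusted p = 0.033), with DESeq2 (0.012) and in 13 of 20 omissions of 1 library, the day 0 library of experiment 3 among them (-1.51, 0.013). In bulk RNA, fewer cells with a miRNA and less of it in each cell cannot be told apart.

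miR-142-3p, the other arm of the hairpin, followed the 5p arm at a lower level. Female cells held 84.3 and 49.4 CPM at day 0, 26.5 and 18.3 at day 4, 2.18 and 2.69 at day 10, 2.61 and 2.01 at days 19 to 23, then 1.27 and 2.37 late. Male cells held 21.4 and 5.69 CPM at day 0, 5.80 and 7.45 at day 4, 2.56 and 2.36 at day 10, 1.25 and 1.88 at days 19 to 23, then 1.05 and 1.12 late. The male day 0 libraries differed 3.75-fold and overlapped day 4, and from day 10 on every library of both lines lay below day 0. The female log2 change was -1.58 ± 0.53 at day 4 (adjusted p = 0.027) and -5.18 ± 0.63 late (1.7e-05), and the male change -1.03 ± 0.53 at day 4 (0.13) and -3.63 ± 0.60 late (0.00034). The female day 4 call was lost without the day 0 library of experiment 2 (-1.33, adjusted p = 0.10) or the day 4 library of experiment 3 (-1.34, 0.17), and the male day 10 call (-2.45, 0.0042) without the day 0 library of experiment 2 (-1.31, 0.081). Without the day 0 library of experiment 3 the male day 4 change passed (-1.94, adjusted p = 0.0089). The 5p arm took a share of 79.2% to 93.6% of the counts of both arms (median 87.9% of 20 libraries), which was 87.6% and 90.1% in female and 87.0% and 92.8% in male cells at day 0.

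miR-150-5p, the lymphocyte miRNA, fell in both lines, with day 0 libraries that differed widely. It stood at 228 and 771 CPM in female cells at day 0, 375 and 229.7 at day 4, 12.1 and 35.5 at day 10, 34.8 and 25.7 at days 19 to 23, then 14.6 and 22.0 late. In male cells it stood at 354 and 1466 CPM at day 0, 114 and 107 at day 4, 3.84 and 18.6 at day 10, 17.2 and 15.8 at days 19 to 23, then 36.2 and 16.7 late. The step between day 4 and day 10 separated the libraries completely in both lines, and female day 4 overlapped day 0. The female log2 change was -0.72 ± 0.78 at day 4 (adjusted p = 0.49), -4.39 ± 0.89 at day 10 (0.0012) and -4.77 ± 0.91 late (0.00064). In the male line it was -3.04 ± 0.83 at day 4 (0.0090), -6.35 ± 0.98 at day 10 (0.00020) and -5.11 ± 0.92 late (0.00070). Experiment 3 held 3.38 times as much as experiment 2 at day 0 in female and 4.14 times as much in male cells, and without it the male day 4 change no longer passed (-1.94, adjusted p = 0.083). Its fall from day 10 on passed also without that library in both lines, with log2 changes between -3.03 and -5.02. Its 3p arm, miR-150-3p, was at most 6.47 CPM in any library and at 1.84, 1.74, 3.11 and 4.54 CPM at day 0. It fell in the male line at day 10, days 19 to 23 and late (-3.98 ± 1.06 late, adjusted p = 0.0087) and in the female line late (-4.02 ± 1.24, 0.016).

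miR-126-3p, the arm usually studied in endothelium, was the minor arm here, and it rose at days 4 and 10 in the female line. Female cells held 33.1 and 48.2 CPM at day 0, 161 and 139.9 at day 4, 73.1 and 80.4 at day 10, 65.3 and 69.5 at days 19 to 23, then 72.5 and 67.2 late. Male cells held 115 and 99.6 CPM at day 0, 163 and 148 at day 4, 99.7 and 106 at day 10, 93.0 and 89.2 at days 19 to 23, then 79.2 and 95.1 late. Every later female library lay above female day 0, day 4 was highest in both lines, and male day 10 overlapped male day 0. The female log2 change was 1.89 ± 0.31 at day 4 (adjusted p = 0.00027), 0.92 ± 0.31 at day 10 (0.027), 0.73 ± 0.31 at days 19 to 23 (0.069) and 0.78 ± 0.31 late (0.0501). The day 4 change passed under every alternative setting and without any single library, whereas the day 10 call was lost with the line fitted alone (0.83, 0.079) and when either day 10 library or the day 0 library of experiment 2 was left out. The change at days 19 to 23 passed with plain totals (1.25, adjusted p = 0.016), a mean of at least 10 CPM (0.022) and DESeq2 (0.021). The late change passed with plain totals (1.19, adjusted p = 0.020), a mean of at least 10 CPM (0.020), DESeq2 (0.012), the experiment as a block (0.79, 0.049) and without the day 0 library of experiment 3 (0.95, 0.049). Male changes ran from 0.53 ± 0.30 at day 4 (adjusted p = 0.17) to -0.30 ± 0.30 late (0.46), and under scaling by plain totals the negative ones from day 10 on turned positive (0.18, 0.47 and 0.36 for the 3 stages), none passing.

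miR-126-5p was the more abundant arm, at 78.0% to 88.8% of the counts of both arms (median 83.3%). It was at 256 and 221 CPM in female cells at day 0, 795 and 497 at day 4, 482 and 308 at day 10, 327 and 305 at days 19 to 23, then 326 and 273 late. In male cells it was at 916 and 428 CPM at day 0, 901 and 811 at day 4, 532 and 564 at day 10, 474 and 469.6 at days 19 to 23, then 385 and 443 late. All female libraries after day 0 lay above it, and in the male line each stage overlapped day 0, whose libraries differed 2.14-fold. The female log2 change was 1.44 ± 0.38 at day 4 (adjusted p = 0.0084) and between 0.33 and 0.73 later, with no later call except at days 19 to 23 under plain totals (0.94, 0.048). The day 4 call was lost without the day 0 library of experiment 3 (0.92, adjusted p = 0.13) or the day 4 library of experiment 2 (0.88, 0.13). The male change was -0.51 at days 19 to 23 (adjusted p = 0.31) and -0.70 late (0.15), and both passed without the day 0 library of experiment 3 (-1.07, 0.039, and -1.25, 0.017).

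**Figure D2:**
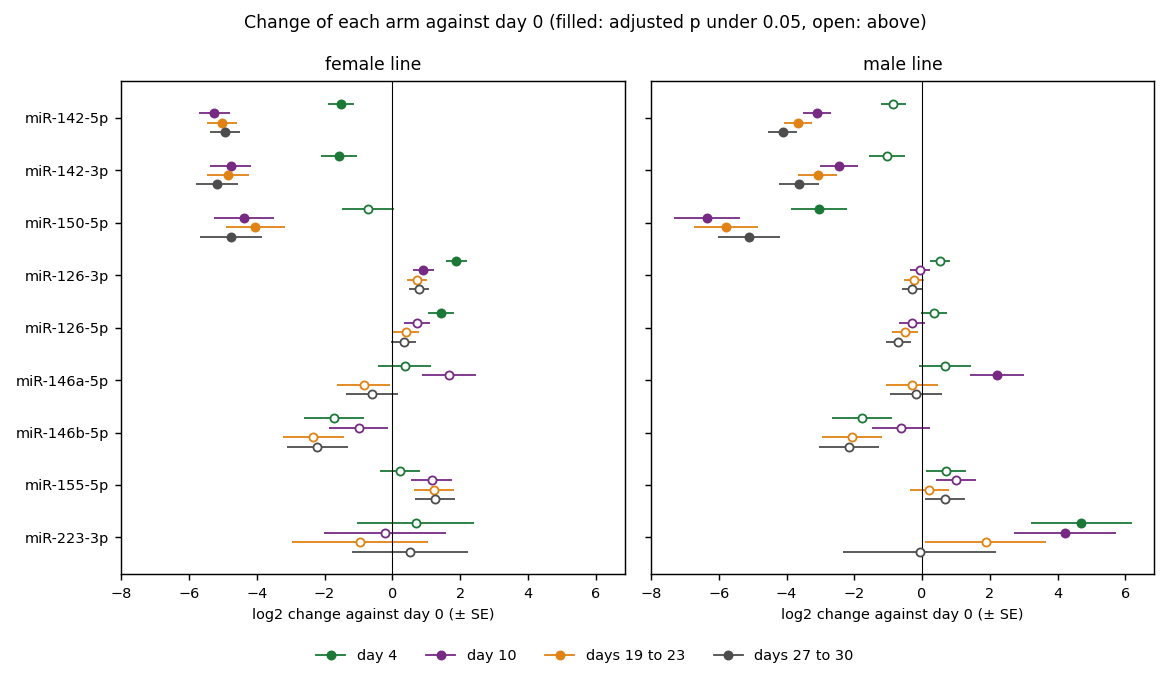
Log2 change of each arm against day 0 of its line, with SE from the edgeR fit, at 4 stages; filled points passed an adjusted p of 0.05. The miR-142 arms and miR-150-5p lie left of 0 in both lines, and miR-126-3p lies right of 0 in the female line with its largest value, 1.89, at day 4.

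The pair with a common seed, miR-146a-5p and miR-146b-5p, had means above (miR-146a-5p) and below (miR-146b-5p) day 0 at day 10, while both were higher at day 10 than at day 4 and than at days 19 to 23 in each experiment and line. Over the 10 group means of log2(CPM + 0.5) their Pearson's r was 0.46. miR-146a-5p was at 42.2 and 15.2 CPM in female cells at day 0, 48.7 and 25.03 at day 4, 150.2 and 32.2 at day 10, 6.74 and 25.1 at days 19 to 23, then 18.8 and 18.9 late. In male cells it was at 44.2 and 17.4 CPM at day 0, 43.5 and 55.6 at day 4, 206 and 78.1 at day 10, 18.2 and 32.2 at days 19 to 23, then 21.6 and 32.7 late. Both male day 10 libraries lay above day 0, while in the female line the day 10 library of experiment 3 lay among the day 0 values. The male log2 change at day 10 was 2.21 ± 0.80 (adjusted p = 0.045), and this call was lost when any 1 of 13 of the 20 libraries was left out, including the day 10 library of experiment 2 (1.40, adjusted p = 0.27) and the day 0 library of experiment 3 (1.62, 0.24). The female change there was 1.67 ± 0.79 (0.11), and no other change of miR-146a-5p passed.

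miR-146b-5p had its highest mean at day 0 in both lines. Female cells held 190.1 and 61.4 CPM at day 0, 58.6 and 17.5 at day 4, 95.4 and 30.7 at day 10, 21.7 and 28.2 at days 19 to 23, then 20.2 and 34.0 late. Male cells held 236 and 39.4 CPM at day 0, 62.2 and 18.7 at day 4, 129.8 and 48.7 at day 10, 28.4 and 37.2 at days 19 to 23, then 23.5 and 38.3 late. In experiment 2 day 0 was highest in both lines. In experiment 3 the male day 0 value lay below day 10 and close to the late one, so the highest male mean at day 0 rests on the experiment 2 library. None of its changes against day 0 passed in the edgeR fit with TMM factors and all libraries, and those near the threshold depended on the setting. Without the day 0 library of experiment 3, those at day 4, at days 19 to 23 and late passed in both lines, with log2 changes from -2.78 to -3.04 (adjusted p = 0.044 for the first). The late log2 change was -2.21 ± 0.90 in female (adjusted p = 0.058) and -2.15 ± 0.89 in male cells (0.067), and at days 19 to 23 the female change was -2.33 ± 0.90 (0.051). The latter passed with every alternative but plain totals (adjusted p from 0.010 to 0.046, block 0.041) and in 15 of 20 omissions of 1 library. The late female change passed with RLE scaling (0.046), without a filter (0.0499), with DESeq2 (0.013), with the line fitted alone (0.029) and in 10 of 20 omissions. At day 4 the female change of -1.73 (0.13) passed with plain totals (0.038), DESeq2 (0.042) and the line alone (0.038), and DESeq2 called the male changes at day 4 (0.039) and late (0.035). Within experiment 3 the late log2 ratio was -0.85 in female and -0.04 in male cells, against -3.23 and -3.32 within experiment 2.

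The share of miR-146a-5p in the counts of the pair shows the difference without any scaling between libraries. It was 18.2% (exact Clopper-Pearson 95% interval 16.6 to 19.8) and 19.9% (17 to 23) in female and 15.8% (14.5 to 17.1) and 30.6% (27.4 to 34.0) in male cells at day 0. At day 4 it was 45.4% and 58.9% in female and 41.2% and 74.9% in male cells, and at day 10 between 51.2% and 61.6%. The day 4 and day 10 libraries all lay above day 0, and of the later ones a single female library at days 19 to 23 (23.7%) lay below the highest day 0 value. These intervals cover counting error of reads only and hold no spread between libraries, which at male day 0 was 15.8% against 30.6%. No molecular identifiers are named in the labels, so whether each read is an independent count is not known. The 3p arms were at the limit of detection, miR-146a-3p with 0 counts in all 4 day 0 libraries and at most 9 elsewhere, and miR-146b-3p with at most 7.

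**Figure D3:**
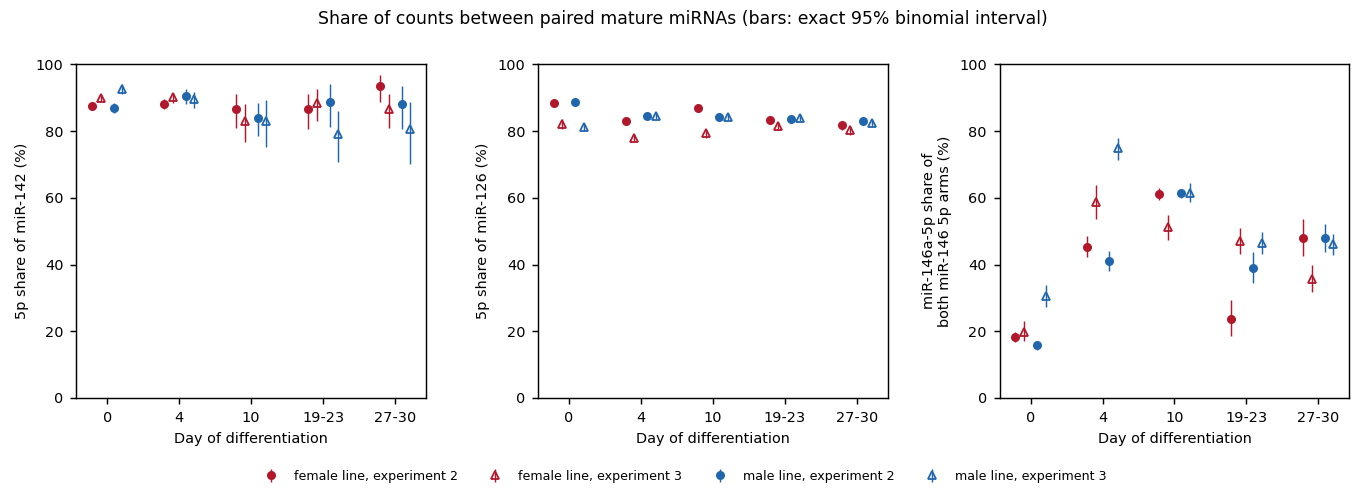
Share of the 5p arm in the counts of miR-142 and of miR-126, and of miR-146a-5p in the counts of the miR-146 pair, in percent with exact binomial 95% intervals, by day and library. Both 5p shares stay between 78.0% and 93.6%, while the miR-146a-5p share is between 15.8% and 30.6% at day 0 and reaches 74.9% at day 4.

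miR-155-5p, the miRNA of activated lymphocytes and macrophages, was low in naive cells. It passed no test in the edgeR fit with TMM factors and all libraries. It was at 23.02 and 30.1 CPM in female cells at day 0, 18.03 and 43.9 at day 4, 45.5 and 73.0 at day 10, 60.5 and 63.2 at days 19 to 23, then 81.5 and 45.0 late. In male cells it was at 21.01 and 31.5 CPM at day 0, 28.0 and 57.1 at day 4, 21.8 and 83.1 at day 10, 24.96 and 36.2 at days 19 to 23, then 42.0 and 41.4 late. All female libraries from day 10 on lay above day 0, as did the late male ones. The log2 change was 1.16 ± 0.59 in the female line at day 10 (adjusted p = 0.13), 1.22 ± 0.59 at days 19 to 23 (0.11) and 1.25 ± 0.59 late (0.10), and 0.67 ± 0.59 in the male line late (0.39). With the experiment as a block the late female change passed (1.36, adjusted p = 0.040). Its 3p arm was at most 2.88 CPM.

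miR-223-3p, the granulocyte miRNA encoded on the X chromosome, was close to absent. Of 20 libraries 18 held 0 to 3 counts, and 3 of them held none. The male libraries of experiment 2 held 26 counts at day 4 (2.56 CPM) and 23 at day 10 (1.64 CPM), against 1 and 2 counts in experiment 3 at the same days. miR-223-3p passed the filter on low counts only through these experiment 2 libraries. Its tests at these days are therefore no support for a change. Counts of both male libraries together gave a ratio to day 0, where there was 1 count, of 33.3 (95% counting interval 5.48 to 1362) at day 4 and 28.7 (4.69 to 1177) at day 10. Of these counts, 26 of 27 at day 4 and 23 of 25 at day 10 stood in the experiment 2 library. The intervals cover counting error only and hold no spread between libraries. The fitted changes passed in the male line (adjusted p = 0.019 at day 4 and 0.042 at day 10), and each was lost without its experiment 2 library (0.71 and 0.44), without the day 0 library of experiment 3 (0.15 and 0.20) and with the line fitted alone (0.070 and 0.093). In all, the day 4 call was lost in 3 and the day 10 call in 11 of 20 omissions of 1 library, and DESeq2 did not call day 10 (0.069). The higher counts stood in 1 library at each of these stages.

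The 2 experiments differed in the same direction in both lines for most members, as they did for most of all tested miRNAs. The members' counts include miR-223-3p, which was at the limit of detection in most libraries. At day 0 this held for 7 of the 9 members, where 65.6% of all tested miRNAs did so, and at day 10 again for 7 (59.0%). At day 4 it held for 6 (72.4%), as at days 19 to 23 (62.4%) and late (51.0%). miR-150-5p was higher in experiment 3 at days 0 and 10, at day 10 by a factor of 2.93 in female and 4.85 in male cells. miR-146b-5p was lower in experiment 3 at days 0, 4 and 10, by factors between 2.66 and 5.98, and higher later. miR-126-3p differed least, by at most a factor of 1.46. What differed between the experiments is not given in the sources used here, so its part in the spread was not tested.

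**Figure D4:**
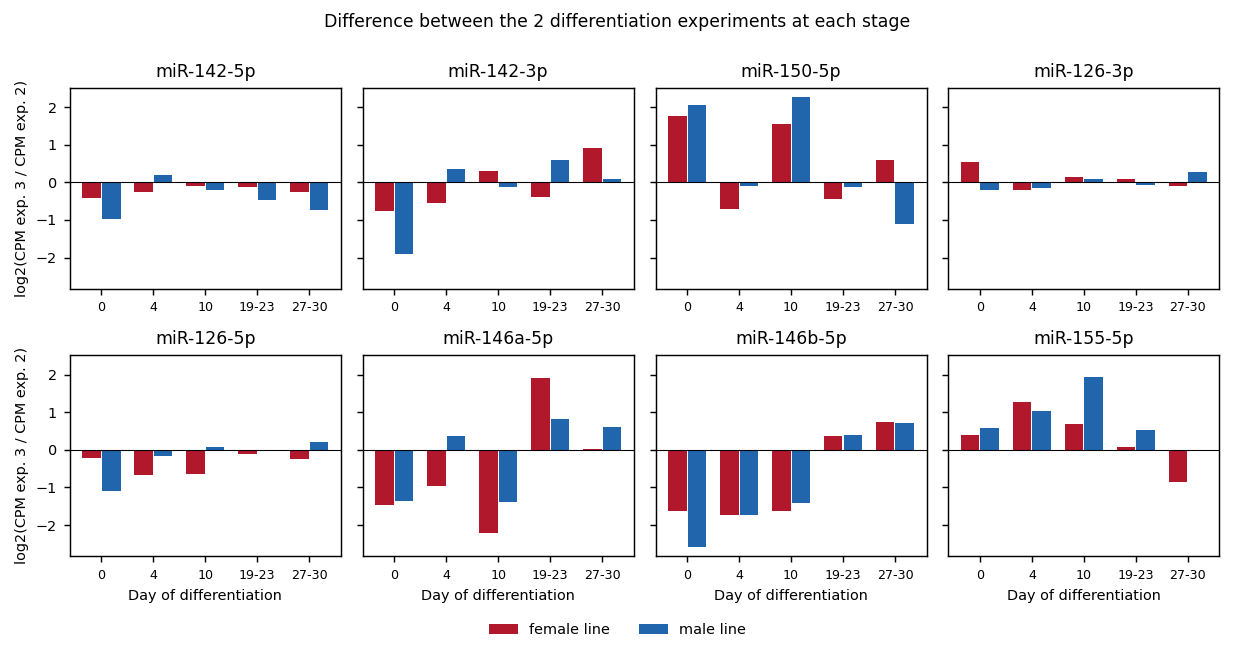
Log2 ratio of the CPM in experiment 3 to those in experiment 2 of the same line and stage, for the 8 members with more than 3 counts in every library. Bars of both lines point the same way at days 0 and 10 for miR-150-5p and at all 5 stages for miR-146b-5p, whose ratios turn from negative to positive after day 10.

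The late stage was also compared with day 4, a contrast that does not use the day 0 levels and shows what moved after the first step. The day 0 libraries still entered the shared estimate of the spread. In the female line 4 of 9 members were lower, where 9.72% of all miRNAs were called, and in the male line 2 of 9, where 9.96% were. Both counts include both arms of miR-142, which come from the same hairpin and are not independent. miR-142-5p fell in both lines (log2 change -3.43 ± 0.42, adjusted p = 9.3e-05, and -3.26 ± 0.42, 0.00022), as did miR-142-3p (-3.60 ± 0.59, 0.00090, and -2.60 ± 0.58, 0.018). miR-150-5p fell in the female line (-4.05 ± 0.88, 0.0069), and the male change of -2.06 ± 0.81 did not pass (0.097). For miR-142-3p the male call was lost without any 1 of the 4 libraries compared, and for miR-150-5p the female call without either late library. miR-126-3p passed in the female line (-1.11 ± 0.31, 0.031), but not with plain totals (-0.40, 0.54), without a filter (-0.95, 0.14) or without any of 17 single libraries. With the experiment as a block miR-126-5p passed too in the female line (-1.09, 0.045), and miR-223-3p in the male line (-4.36, 0.041), where the day 4 counts stand in the 1 library above.

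In naive cells both miR-142 arms were higher in the female line and both miR-126 arms higher in the male line. At day 0, 4 of the 9 members were called between the lines, where 8.73% of all miRNAs were. These 4 were both arms of miR-142 and both arms of miR-126, and arms of the same hairpin are not independent. miR-142-5p was 4.83 times and miR-142-3p 4.94 times as high in the female line by their means (log2 difference 2.27 ± 0.39, adjusted p = 0.0013, and 2.31 ± 0.54, 0.011). miR-126-3p was 2.64 times and miR-126-5p 2.82 times as high in the male line (female minus male -1.40 ± 0.31, 0.0072, and -1.50 ± 0.39, 0.020). The miR-142-3p call was lost without the female day 0 library of experiment 2 (1.70, adjusted p = 0.13) or the male one of experiment 3 (1.49, 0.12), and the miR-126-5p call without the male one of experiment 2 (-1.02, 0.13). miR-150-5p, miR-146a-5p, miR-146b-5p, miR-155-5p and miR-223-3p did not pass at day 0.

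At day 4 only miR-142-5p among the 9 members was called, at 3.04 times the male level (log2 difference 1.60 ± 0.39, adjusted p = 0.023), where 5.04% of all miRNAs were called. That call was lost with plain totals (1.27, 0.12) and without any 1 of 12 single libraries. Later no member was called, and the share of all miRNAs called was 0 at day 10, days 19 to 23 and late in edgeR. An unadjusted p under 0.05 was reached there by 97, 60 and 63 miRNAs, and DESeq2 called 29, 2 and 4. At day 10 both miR-142 arms overlapped between the lines, at 1.09 (5p) and 0.99 (3p) times the male mean. At days 19 to 23 and late they were higher in every female than in every male library, with miR-142-5p at 2.70 times the male mean late (log2 difference 1.43 ± 0.39, adjusted p = 0.37). Whether the change against day 0 itself differed between the lines was tested as an interaction. In edgeR the share called was 0 at days 4, 10 and 19 to 23, and 0.369% late, with none of the 9 members at any stage. An unadjusted p under 0.05 was reached by 118, 98, 94 and 113 miRNAs in turn, and DESeq2 called 17, 19, 37 and 39. For miR-126-3p the female change at day 4 exceeded the male one by 1.35 ± 0.43 (adjusted p = 0.24 in edgeR, 0.0062 in DESeq2), and for miR-142-5p the female change at day 10 was lower by 2.15 ± 0.54 on the log2 scale (0.12 in edgeR, 0.0044 in DESeq2).

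Other markers of blood and endothelium were counted beside the members. Of 7 erythroid names 5 were counted, and they summed to 62.4 to 197 CPM at day 0 and 110 to 290.0 CPM late. miR-451a, the red cell miRNA, was at most 1.44 CPM, and the miR-144 arms at most 2.72 CPM. The sum came from miR-486-5p and miR-486-3p, at 36.1 to 179 and 25.3 to 109 CPM, which passed no test. Mouse miR-486 has a near-identical copy on the opposite strand, so its counts are uncertain. At most 1 of the 4 tested erythroid arms passed at any stage, miR-144-5p, which fell in late male cells. Of all tested miRNAs, 33.7% to 43.5% were called against day 0.

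Of the 6 other lymphoid and myeloid arms 3 were tested, and they summed to 278 to 696 CPM at day 0 and 428 to 460.5 CPM late. miR-147-3p, an arm induced in macrophages, was at 31.4 and 118 CPM in female and 21.6 and 79.7 CPM in male cells at day 0, and at 2.86 to 9.89 CPM in all later libraries. Day 0 lay above every later library, and the arm fell at each stage, by -3.94 ± 0.67 late in female (adjusted p = 0.00027) and -3.48 ± 0.66 in male cells (0.00090). miR-342-3p, the arm of the Evl intron known from lymphocytes and myeloid cells, was at 223.4 to 523 CPM in all libraries, and miR-342-5p at 19.5 to 57.0 CPM, with no call for either. The myeloid arms miR-511-3p and miR-511-5p were at most 0.326 CPM. Of the endothelial pair, miR-139-5p was at 2.61 and 3.15 CPM in female and 1.64 and 3.60 CPM in male cells at day 0. It rose at day 4 to 13.9 and 9.47 and to 10.0 and 8.56 CPM (2.01 ± 0.60, adjusted p = 0.015, and 1.81 ± 0.59, 0.022), and was at 1.48 to 7.62 CPM later.

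**Figure D5:**
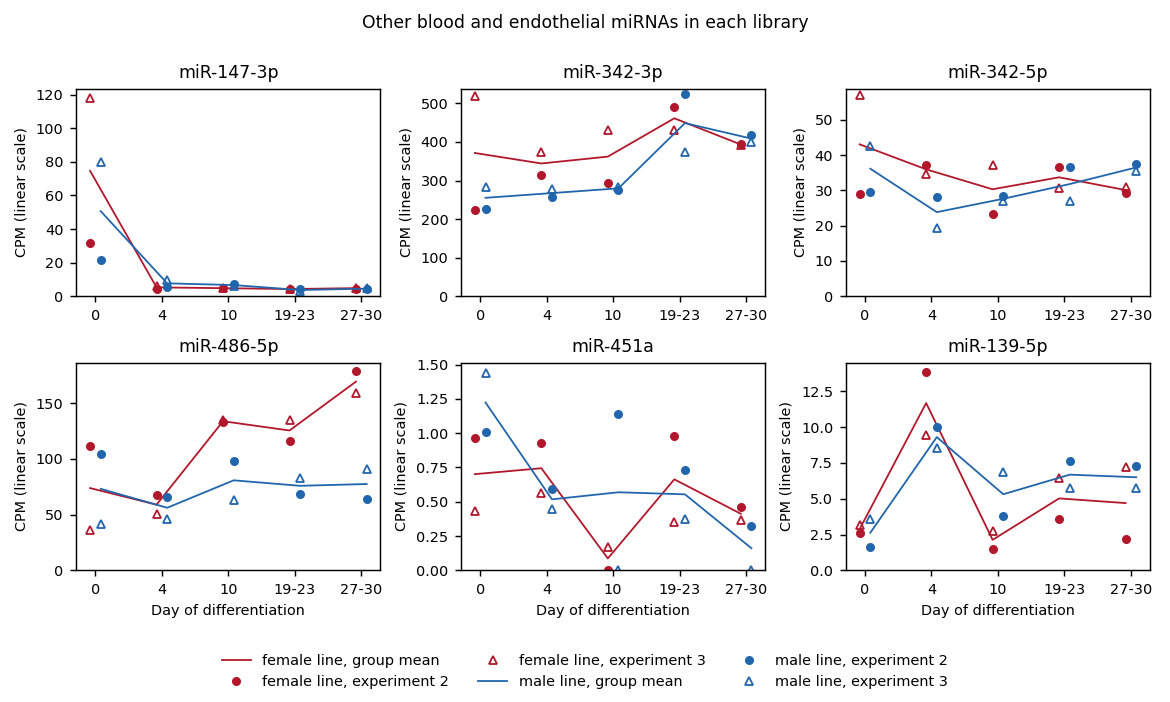
Level in each library (CPM scaled by TMM factors, linear axis from 0) of 6 other blood and endothelial miRNAs against the day of differentiation, with lines through the means of the 2 libraries of a group. miR-147-3p is above 20 CPM at day 0 alone, miR-451a is never above 1.44 CPM, and miR-139-5p is highest at day 4 in both lines.

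Fibroblast markers moved over the same days. The 11 arms summed to 5783 to 11153 CPM at day 0 and 9029 to 17284 CPM late, carried by miR-21a-5p and miR-143-3p. miR-143-3p was at 8745 and 3654 CPM in female and 6690.4 and 2851 CPM in male cells at day 0, and at most 2307 CPM in every later library. It fell at each stage in the female line and at each but the last in the male line. miR-199a-3p was at 24.0 and 44.5 CPM in female and 121 and 345 CPM in male cells at day 0, and at 596 and 489 CPM in late female cells, where it rose (adjusted p = 0.0025). In male cells it fell to 40.8 and 29.6 CPM at day 4 (0.019) and 26.96 and 47.5 CPM at day 10 (0.029), and late, at 119 and 660.4 CPM, it overlapped day 0. miR-21a-5p rose at every stage in both lines, with means between 3.16 and 11.8 times day 0. Of the 11 arms, 2 were lower and 7 higher in late female cells, where 43.5% of all tested miRNAs were called. In late male cells 0 were lower and 4 higher, which is about the share of all tested miRNAs called there (40.7%). At day 10 there were 3 lower and 4 higher in female (40.1% of all tested miRNAs called) and 5 lower and 2 higher in male cells (33.7%). miR-214-3p had 0 counts in all 8 libraries of days 0 and 4, and was counted in every later library, at up to 44.9 CPM. Either arm of the liver marker miR-122 was at most 0.104 CPM. The part of other cell types in the levels of the 9 members was not tested.

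The patterns most like each member were sought among 587 miRNAs over the 10 group means, by Pearson's r of log2(CPM + 0.5). For miR-142-5p they were miR-672-3p (r = 0.95), miR-672-5p (0.94) and miR-196a-1-3p (0.94), and for miR-142-3p miR-196a-1-3p (0.95), miR-878-5p (0.94) and miR-881-3p (0.94). Mean miR-672-5p went from 3338 to 86.7 CPM in female and from 1130.3 to 72.4 CPM in male cells between day 0 and the late stage. miR-150-5p was most like miR-1968-5p (0.95), miR-3078-5p (0.95) and miR-196a-1-3p (0.95). For miR-126-3p the 3 nearest were arms of the X-linked miR-106a-363 cluster, miR-19b-2-5p (0.98), miR-363-3p (0.97) and miR-20b-3p (0.97), and for miR-126-5p they were miR-19b-3p (0.96), miR-20b-5p (0.93) and miR-195a-5p (0.93). miR-363-3p had group means of 1009.7 CPM in female and 4146 CPM in male cells at day 0, and of 2371 and 3062 CPM late. miR-146b-5p was nearest to miR-1843b-5p (0.95), miR-32-5p (0.92) and miR-16-5p (0.90). For miR-146a-5p the nearest were miR-592-5p (0.81), miR-5099 (0.81) and miR-200a-3p (0.75), and for miR-155-5p miR-702-5p (0.85), miR-125a-3p (0.84) and miR-99b-3p (0.82). Among the members, miR-142-5p was close to miR-142-3p (0.99) and miR-150-5p (0.90), and miR-126-3p to miR-126-5p (0.95). These r are descriptions over 10 points that share libraries and scaling.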

How the data were processed

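Small RNA from 20 libraries, 2 for each of 5 stages in each of 2 mouse lines, was sequenced after Trizol and phenol:chloroform extraction and DNase treatment, per the labels' protocols. The authors deposited 1 table of raw counts per mature miRNA for each line, with 1109 miRNAs in the female and 1091 in the male table, of which the 1063 shared ones were used. The submitters' processing notes name CASAVA 1.8.2, DESeq2, GRCm38 and mm10. The sources used here give no aligner, counting rule, strand setting or treatment of reads that match several miRNAs. Table totals ran from 7112398 to 18031067 counts.

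Counts of all 20 libraries were fitted together in edgeR 4.0.16 (R 4.3.3) with a quasi-likelihood test over 10 groups of 2 libraries, after edgeR's filter on low counts by group, which left 813 miRNAs. TMM factors ran from 0.551 to 1.43, and p-values were adjusted by Benjamini-Hochberg within each comparison at 0.05. The SE of a log2 change was taken from the change and its F statistic. Levels are CPM scaled by TMM factors, and a log2 change is the fitted one. The members and lists were chosen with earlier results of these data known. Named were all 9 members, the other arms of their hairpins, up to 4 of each marker list with a group mean of at least 10 CPM, and the 3 most like miRNAs of each member of that level. miR-139-5p, miR-144-5p, miR-451a, miR-511, miR-122 and miR-214-3p fall outside that rule and were named after their values were seen. The interactions at day 10 and at days 19 to 23 were also added after seeing the data.

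Alternatives were a fit of each line alone, DESeq2 1.42.0, a block for the experiment, RLE scaling, plain totals, a filter at a mean of 10 CPM, no filter, and the omission of each library in turn. Deviations from the group mean of libraries of the same experiment and stage correlated between the lines with r of 0.130 to 0.554 (median 0.393, 5 pairs), against a median of 0.0767 for 20 pairs of stages within a line. The labels' experiment numbers were therefore taken as pairing in the block alternative and in ratios within an experiment. The fit over 10 groups had no term for the experiment, so its p-values treat libraries of the same experiment as independent. The edgeR fit was tested on simulated counts, for the female comparison of day 4 with day 0 only. Mature sequences came from RefSeq (GRCm38.p6), where miR-142 and miR-126 are listed as miR-142a and miR-126a, and gene overlaps from GENCODE M21.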

Additional observations from a re-analysis of the deposited data

How the results depend on the processing

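The falls of miR-142-5p, miR-142-3p and miR-150-5p at days 19 to 23 and late, and the female rise of miR-126-3p at day 4, passed under all alternatives run. Scaling moved the median log2 change of all tested miRNAs relative to TMM by -0.31 (female day 4) to 0.71 (female late against day 4) with plain totals and by -0.25 to 0.31 with RLE, and changes of that size cannot be told from a choice of scale. Plain totals moved the share of calls that were higher from 62.6% to 48.1% at female day 4, from 52.3% to 68.6% at female days 19 to 23, from 55.4% to 65.7% female late, from 46.2% to 69.2% at male days 19 to 23 and from 48.0% to 68.9% male late. They moved it from 34.2% to 66.2% (female) and from 44.4% to 78.2% (male) for late against day 4, and from 92.7% to 76.3% between lines at day 4. RLE moved it from 57.8% to 46.1% at male day 4 and from 44.4% to 70.3% for male late against day 4. With 2 libraries per group, precision is limited, and most libraries held no more than 3 counts of miR-223-3p.

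The number of the 9 members called moved by over 1.5 times as follows, the cause not being tested, and by at most 1 member in every other fit of all libraries. Female days 19 to 23 went from 3 to 5 with plain totals, with a mean of at least 10 CPM and with DESeq2, and female late from 3 to 5 with the block and with DESeq2. Male day 4 went from 2 to 1 with a mean of at least 10 CPM or each line alone and to 4 with DESeq2, male day 10 from 5 to 3 with a mean of at least 10 CPM, and male late against day 4 from 2 to 1 with each line alone. Between lines at day 4 it went from 1 to 0 with plain totals or a mean of at least 10 CPM and to 2 with DESeq2, and the interactions at days 4 and 10 from 0 to 1 with DESeq2. The block changed no other member's call than those given in the report, the pairing being of experiments.

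Of all miRNAs, female late against day 4 had 79 calls, 133 with plain totals and 120 with the replicate block. Male late against day 4 had 81, 137 with the replicate block and 155 with DESeq2. Between lines at day 4 there were 41, and 78 with DESeq2. Between lines at day 10 there were 0, against 9 with plain totals, 10 without a filter, 3 with a mean of at least 10 CPM, 17 with the block and 29 with DESeq2. At days 19 to 23 there were 0, 1 with plain totals and 2 with DESeq2, and late 0, and 4 with DESeq2. The interaction at day 4 had 0, 1 with a mean of at least 10 CPM and 17 with DESeq2, and at day 10 it had 0, 2 without a filter, 2 with a mean of at least 10 CPM and 19 with DESeq2. At days 19 to 23 it had 0, 2 with RLE, 2 with plain totals, 1 without a filter, 3 with a mean of at least 10 CPM, 15 with the block and 37 with DESeq2. The late interaction had 3, 9 with RLE, 13 with plain totals, 17 without a filter, 8 with a mean of at least 10 CPM, 20 with the block and 39 with DESeq2.

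Leaving out 1 library at a time gave 2 to 5 member calls and 220 to 381 calls of all miRNAs at female day 4, 3 to 4 and 215 to 335 at day 10, 3 to 4 and 238 to 343 at days 19 to 23, and 3 to 5 and 240 to 366 late. For the male line it gave 1 to 3 and 232 to 359, 2 to 5 and 161 to 283, 3 to 5 and 161 to 299, and 3 to 5 and 191 to 355 in the same order. Late against day 4 gave 2 to 4 and 42 to 111 (female) and 1 to 2 and 5 to 111 (male), where the 5 calls arose without the male day 4 library of experiment 2. Between lines it gave 3 to 4 and 53 to 84 at day 0, 0 to 2 and 0 to 47 at day 4, 0 and 0 to 13 at day 10, and 0 of both later. Interactions gave 0 member calls, except 0 to 1 at days 19 to 23, and 0 to 3, 0 to 6, 0 to 19 and 0 to 12 calls of all miRNAs at the 4 stages in turn.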
